A study of Mus musculus with 12 samples.

Results

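The comparison described here sets the hearts of CHIP-altered mice treated with doxorubicin (CHIP-altered DOX, 3 arrays) against the hearts of untreated wild-type mice (WT untreated, 3 arrays), that is, 6 of the 12 expression arrays of the series, chosen by their titles alone. All mice were male C57BL/6J, 8 to 10 weeks old by the labels. The treated hearts were taken 5 days after 1 dose of 15 mg/kg doxorubicin (DOX), and the labels give no treatment for the others, where the study's methods state a saline injection. CHIP-altered is the name used here for arrays that the labels call CHIP knockout and the study's methods call CHIP transgenic, with the transgene limited to the heart. The methods also give another age and another dose. Whether each array holds 1 heart or pooled hearts is not stated, so the p-values below measure the spread between arrays. The other 6 arrays, 3 of untreated CHIP-altered hearts (CHIP-altered untreated) and 3 of DOX-treated wild-type hearts (WT DOX), were used to split the comparison into a genotype step and a drug step.

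CHIP, encoded by Stub1, is a cochaperone and ubiquitin ligase. It binds the chaperones Hsp70 and Hsp90 and marks the proteins they hold for breakdown by the proteasome. DOX is an anthracycline used against cancer that poisons topoisomerase II in DNA, and damage to heart muscle is its main long-term toxicity. Because the compared groups differ in genotype and in treatment, a gene pushed one way by the genotype and the other way by the drug can lie near its normal level in the treated CHIP-altered heart.

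Values are intensities of probe sets, the short oligonucleotide groups that report 1 transcript on the array. Differences are on the log2(intensity + 32) scale, with the standard error (SE) of a limma model over all 12 arrays, and calls were made where the p adjusted over all 45037 probe sets was under 0.05. The genotype effect is the mean of the CHIP-altered against WT difference with and without DOX, the drug effect is the mean of the DOX response in both genotypes, and the difference between CHIP-altered DOX and WT untreated hearts is exactly their sum. Comparisons between the 4 groups share arrays, so their values are set side by side and not counted as separate evidence. The arrays had median intensities between 28.9 and 30.4, and 51.4% of the probe sets averaged under 32, where differences on this scale are compressed. CHIP-altered untreated replicate 3 and WT DOX replicate 2 lay farthest from their own groups, and the counts of calls and the main gene lists are given with and without both, an alternative chosen after seeing the data. Neither is among the 6 arrays compared. Cardiomyocyte markers were bright on every array, with a sum over 12 genes of 189001 or more, and skeletal muscle markers were dim, with a sum over 12 genes of 305 at most.

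The targeted gene, Stub1, separated the groups. Its intensity was 1857, 1831 and 1790 in WT untreated hearts and 5561, 7998 and 8723 in CHIP-altered DOX hearts. In CHIP-altered untreated hearts it was 8762, 9817 and 9655, and in WT DOX hearts 1944, 1950 and 1930. The groups did not overlap by genotype, and the 3.94-fold difference between CHIP-altered DOX and WT untreated hearts (log2 1.98 ± 0.13 SE, limma adjusted p = 0.00111) lay in the genotype effect of 2.12, with a drug effect of -0.14 (adjusted p = 0.45). The level rose in the arrays that the labels call knockout. A second Stub1 probe set was not called, with a difference of 0.10 (adjusted p = 0.72). Where these probe sets lie relative to a transgene or a deletion is not known here, so neither settles which allele the mice carried.

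Between CHIP-altered DOX and WT untreated hearts, 297 of 45037 probe sets were called (0.659%). Of these, 94 were higher (0.209%) and 203 were lower (0.451%) in the treated CHIP-altered hearts. After quantile normalization the split was 144 higher of 324. The probe sets that name 1 gene stood for 66 genes among the higher and 165 among the lower calls. Only 101 of the called probe sets differed by 1.5-fold or more and 32 by 2-fold or more, and 5972 probe sets had an unadjusted p under 0.05. In 41925 probe sets (93.1%) the 95% interval of the difference lay within 1.5-fold in either direction, which includes the many dim probe sets whose differences are compressed. The number of calls depended on single arrays. It was 159, 52 and 66 without WT untreated replicate 1, 2 or 3, and 72, 28 and 179 without CHIP-altered DOX replicate 1, 2 or 3. Leaving out CHIP-altered untreated replicate 3 raised it to 729. It was 901 when only the 6 arrays compared were fitted.

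How far the treated CHIP-altered heart lay from the untreated wild-type heart was measured as the root mean square log2 difference between group means over all probe sets. It was 0.176, against 0.208 between WT DOX and WT untreated hearts and 0.174 between CHIP-altered untreated and WT untreated hearts. The spread between replicates, pooled over all 4 groups and so the same for each comparison, gives 0.10 by itself. For CHIP-altered DOX against WT untreated hearts 0.145 remained once that part was subtracted as a square. The spread was not equal, with mean distances of 0.203 among CHIP-altered untreated and 0.191 among WT DOX arrays. The pooled part is therefore too large for the 2 compared groups, whose arrays lay closer together. The pair of groups that carry 1 change each, WT DOX and CHIP-altered untreated, lay 0.269 apart. Single arrays gave the same picture, with a mean distance of 0.210 between WT untreated and CHIP-altered DOX arrays, 0.139 among WT untreated arrays and 0.145 among CHIP-altered DOX arrays. By group means, the treated CHIP-altered heart thus carried both changes and lay about as far from the untreated wild-type heart as the CHIP-altered heart did without the drug. This ranking is a description with no test, and it was not repeated without CHIP-altered untreated replicate 3. That array lay 0.272 from the WT untreated mean, and replicates 1 and 2 of its group 0.174 and 0.170. The CHIP-altered DOX arrays lay at 0.214, 0.194 and 0.175.

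**Figure D1:**
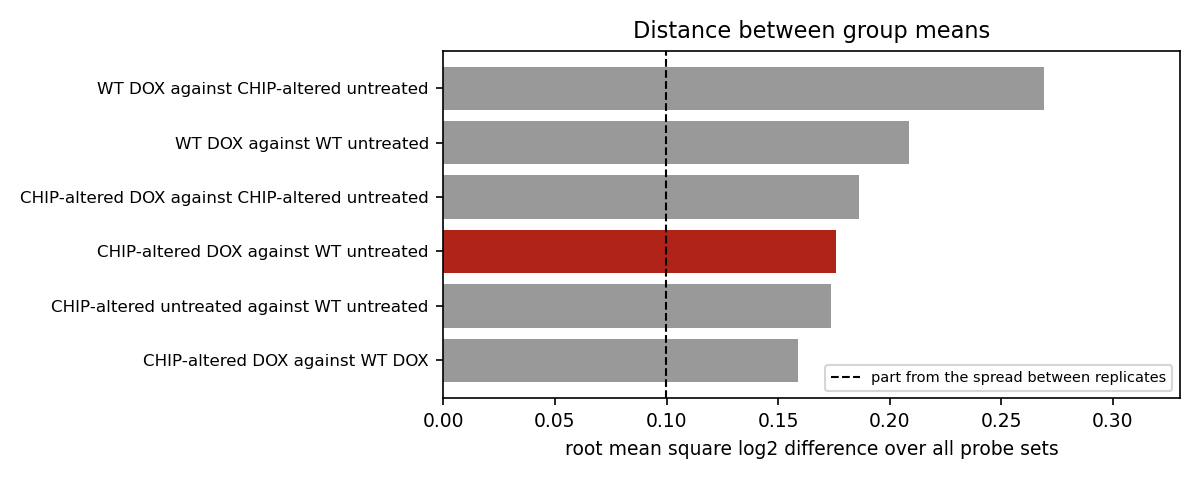
Root mean square log2(intensity + 32) difference between group means over 45037 probe sets (x axis) for each pair of groups (bars, from 0). The dashed line at 0.10 is the value that the spread between replicates, pooled over all groups, gives by itself. CHIP-altered DOX against WT untreated (red) reaches 0.176, and the largest bar, 0.269, is WT DOX against CHIP-altered untreated.

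The 297 called probe sets divided by the effect that carried them. The genotype effect by itself was called in 97, the drug effect by itself in 147, both effects in the same direction in 48 and both in opposite directions in 5. No called probe set had neither effect called. The drug effect was the larger in size in 170 and the genotype effect in 127. These counts describe parts of the same model and are not separate tests. For comparison, DOX against no treatment was called in 1379 probe sets in WT (3.06%) and 990 in CHIP-altered hearts (2.2%), and the genotype in 817 without (1.81%) and 424 with DOX (0.941%). WT DOX differed from CHIP-altered untreated hearts in 6234 (13.8%).

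The 15 highest and 15 lowest named genes were taken only from called probe sets whose 2 compared groups did not overlap, as in 21.4% of all probe sets. That these groups lie apart in each such gene is therefore part of the choice. Each gene is given by its probe set with the largest such change. Among the 15 highest in CHIP-altered DOX against WT untreated hearts, 7 had the genotype effect called and the drug effect not called, namely Stub1, Btg2, Stbd1, Phlda3, Slc16a7, Pdlim5 and Mmp2. Btg2 and Phlda3 are known targets of p53, the transcription factor that answers DNA damage. The promoter windows of both, the 250 bases before the annotated start in RefSeq on GRCm38.p6, are shown because both are p53 targets among these highest genes. Their drug effect, which was not called, averages the DOX response over both genotypes. Capitals mark the motifs CCAAT and TATAAA, searched on both strands and not overlapping each other. Btg2 lies on the minus strand at chr1:134079156-134079405 and Phlda3 on the plus strand at chr1:135765835-135766084.
Btg2: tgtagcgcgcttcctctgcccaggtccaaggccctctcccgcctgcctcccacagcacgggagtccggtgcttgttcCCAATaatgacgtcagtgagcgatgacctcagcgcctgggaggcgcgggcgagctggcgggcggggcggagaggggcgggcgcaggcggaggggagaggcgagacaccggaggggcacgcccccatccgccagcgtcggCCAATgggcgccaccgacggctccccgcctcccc
Phlda3: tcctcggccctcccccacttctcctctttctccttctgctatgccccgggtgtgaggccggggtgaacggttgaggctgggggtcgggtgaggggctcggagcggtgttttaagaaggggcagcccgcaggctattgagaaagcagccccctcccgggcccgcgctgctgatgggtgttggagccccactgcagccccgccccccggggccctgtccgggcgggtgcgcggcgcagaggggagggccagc
The Btg2 window held 2 CCAAT motifs, 173 and 34 bases before the start, and the Phlda3 window held neither motif. Over all 32851 promoter windows of this length, 33.9% held CCAAT, 12.4% TATAAA and 7.13% a p53 half-site, which was found in neither window. A match or its absence describes these letters only.

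Phlda3, which encodes a repressor of the kinase Akt, had intensities of 98.9, 105 and 104 in WT untreated hearts and 318, 316 and 353 in CHIP-altered DOX hearts. In CHIP-altered untreated hearts they were 312, 359 and 571, and in WT DOX hearts 137, 124 and 129. All CHIP-altered arrays lay above all WT arrays. Within WT hearts every DOX array lay above every untreated array, while the CHIP-altered groups overlapped. Phlda3 rose 2.67-fold between the compared groups (log2 1.42 ± 0.16 SE, adjusted p = 0.0111), with a genotype effect of 1.42 and a drug effect of 0.00 (adjusted p = 0.998). The call was lost without CHIP-altered DOX replicate 2 (adjusted p = 0.0584).

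Btg2, an antiproliferative gene induced by p53, had intensities of 44.8, 64.4 and 59.4 in WT untreated hearts and 499, 583 and 418 in CHIP-altered DOX hearts. The difference was 6.01-fold (log2 2.59 ± 0.42 SE, adjusted p = 0.0307). CHIP-altered untreated hearts had 413, 273 and 651 and WT DOX hearts 110, 135 and 430, so that WT DOX replicate 3 overlapped the CHIP-altered arrays. The genotype effect was 1.81 (adjusted p = 0.0096) and the drug effect 0.78 (adjusted p = 0.142). Within WT hearts every DOX array lay above every untreated array. These values come from a probe set that is not the brightest of Btg2. A second Btg2 probe set disagreed, with a difference of 0.46 (adjusted p = 0.561).

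The other genes with a called genotype effect and no called drug effect serve metabolism, the Z-disc and the matrix. Stbd1, which anchors glycogen to membranes, had 132, 159 and 134 in WT untreated and 543, 503 and 390 in CHIP-altered DOX hearts, a log2 difference of 1.55 ± 0.24 SE (adjusted p = 0.0294), with a genotype effect of 1.35. Slc16a7, a transporter of lactate and pyruvate, had 61.3, 54.2 and 49.5 against 147, 188 and 181, a difference of 1.22 ± 0.21 SE (adjusted p = 0.0372), with a genotype effect of 1.23. In both genes the compared groups lie apart, as the choice required. Pdlim5, a Z-disc adaptor, had 385, 392 and 359 against 908, 826 and 755 (1.07 ± 0.19 SE, adjusted p = 0.0444), with a genotype effect of 0.73. A brighter Pdlim5 probe set is not described here. Mmp2, a protease that cleaves collagen fragments and basement membrane, had 363, 253 and 363 against 754, 796 and 593, a difference of 1.06 ± 0.16 SE (adjusted p = 0.026), and its second probe set gave 1.03 (adjusted p = 0.0485). By the same choice, every CHIP-altered DOX array lay above every WT untreated array for both genes.

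A second set of higher genes followed the drug. Bnip3, a mitochondrial protein that marks mitochondria for autophagy, had 3788, 4875 and 4225 in WT untreated hearts and 9530, 8117 and 6837 in CHIP-altered DOX hearts. In WT DOX hearts it reached 10863, 11805 and 12379, while CHIP-altered untreated hearts had 4785, 3982 and 4896. The DOX arrays lay above all arrays without DOX, and the difference was 0.92 ± 0.13 SE (adjusted p = 0.0226) with a drug effect of 1.14 and a genotype effect of -0.22 (adjusted p = 0.237). Cp, the copper-carrying ferroxidase ceruloplasmin, had 189, 195 and 183 against 498, 476 and 442, a difference of 1.19 ± 0.15 SE (adjusted p = 0.0149), with a drug effect of 1.14. Its arrays likewise separated by treatment. A brighter Cp probe set is not described here. Retsat, which saturates retinol, the detoxifying transferase Mgst1, the chaperone gene Calr3 and the histone gene H2ac19 differed by 0.96 to 1.21, and each had the drug effect called and the genotype effect not called.

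In Ephx1 and Asb11 both effects were called and added up. Ephx1, the microsomal epoxide hydrolase, had 585, 479 and 503 in WT untreated, 690, 637 and 920 in CHIP-altered untreated, 981, 1213 and 844 in WT DOX and 1551, 1339 and 1270 in CHIP-altered DOX hearts. The CHIP-altered DOX arrays were above all others. The total was 1.36 ± 0.16 SE (adjusted p = 0.0113), of which 0.47 was the genotype effect and 0.89 the drug effect. Asb11, a substrate adaptor of a ubiquitin ligase complex, had 1398, 1242 and 1215 in WT untreated and 2818, 2722 and 2492 in CHIP-altered DOX hearts, a difference of 1.04 ± 0.11 SE (adjusted p = 0.00687). The genotype call of Ephx1 was lost without any 1 of 10 of the 12 arrays, that of Asb11 without any 1 of 8, and both with a replicate block, while their drug calls held without each array. Of the 30 genes highest or lowest in this comparison, Stub1, Asb11 and Cep128 kept their call without each of the 12 arrays in turn, and the other 27 lost it without at least 1 array.

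**Figure D2:**
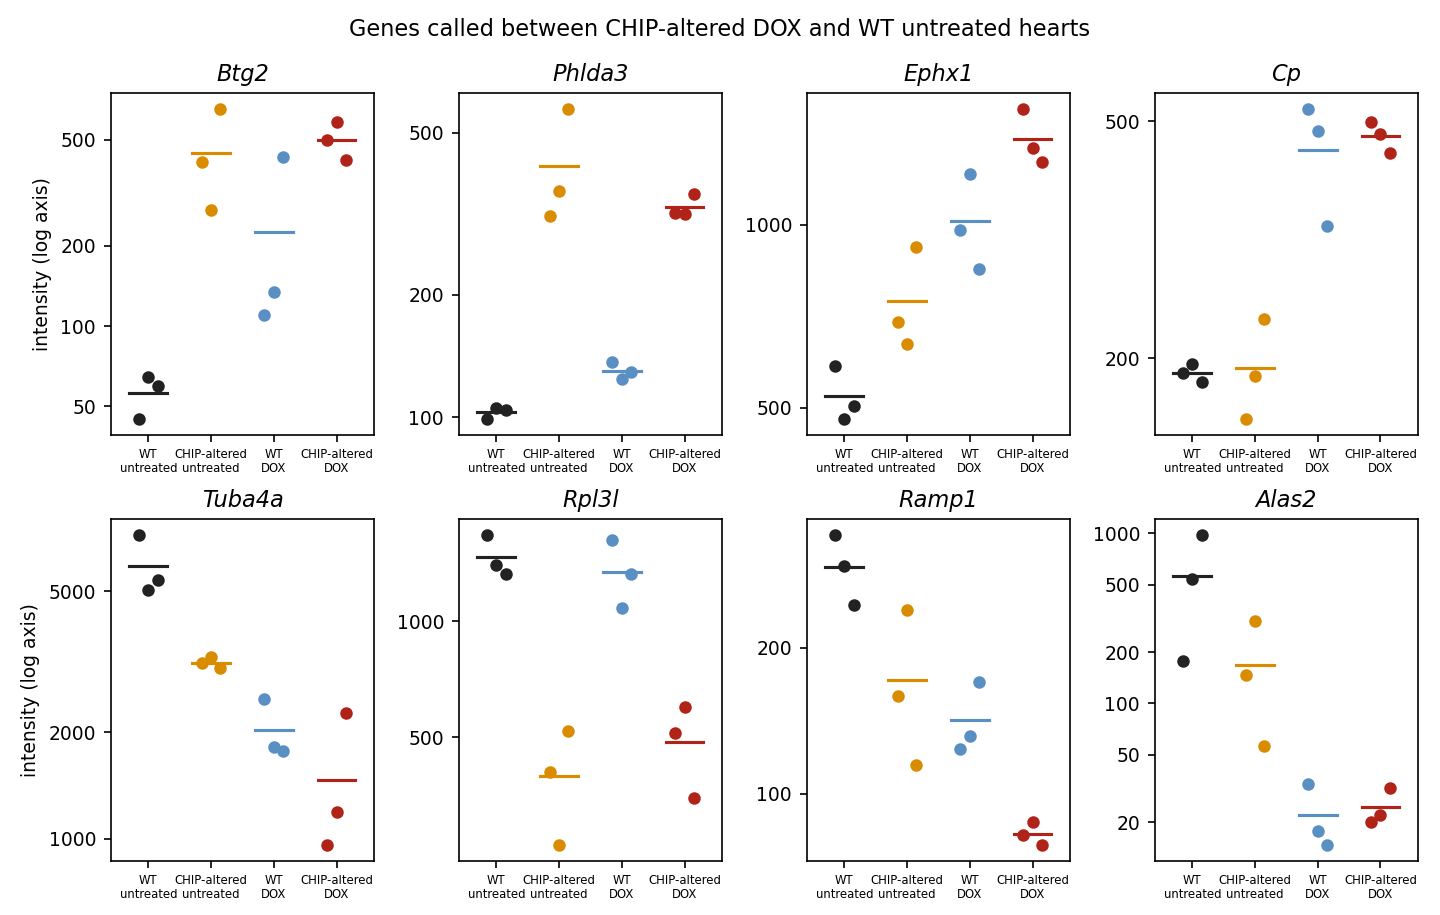
Intensity on a log axis (y) of 8 called genes in the 4 groups (x), with a point per array and a bar at the group mean (n = 3). Phlda3 and Rpl3l separate by genotype, Cp and Alas2 by treatment, and Ephx1 and Ramp1 step in the same direction with each change.

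The lowest genes again included some that mainly followed the genotype. Cep128, which encodes a centriole protein, had 514, 462 and 438 in WT untreated hearts and 135, 135 and 138 in CHIP-altered DOX hearts. It fell by 1.58 on the log2 scale (SE 0.10, adjusted p = 0.00104), with 124, 124 and 106 in CHIP-altered untreated and 209, 285 and 269 in WT DOX hearts. Both effects were called, -1.25 for the genotype and -0.33 for the drug (adjusted p = 0.019). With DOX it was lower in every WT array and slightly higher in every CHIP-altered array. All arrays of the other groups lay below every WT untreated array. Rpl3l, a muscle-specific variant of a ribosomal protein, had 1674, 1401 and 1325 against 512, 600 and 348, a difference of -1.55 ± 0.25 SE (adjusted p = 0.0307), with a genotype effect of -1.63 and a drug effect of 0.08. Its WT DOX arrays, at 1623, 1082 and 1328, lay above all CHIP-altered arrays. D2hgdh, Lgi1 and Myo5b were lower with a called genotype effect and no called drug effect, by 0.89 to 0.93 in size. Lgi1 was dim at 48.7 at most, and a brighter Lgi1 probe set is not described here.

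Other low genes followed the drug. Tuba4a, a tubulin, had 7199, 5043 and 5366 in WT untreated hearts and 958, 1189 and 2256 in CHIP-altered DOX hearts, a difference of -2.05 ± 0.27 SE (adjusted p = 0.0162) with a drug effect of -1.35 and a genotype effect of -0.71 that was not called (adjusted p = 0.0692). That the compared groups lay apart was again part of the choice. A second Tuba4a probe set was also called at -1.49 (adjusted p = 0.0286), while another gave -0.38 (adjusted p = 0.235). Fscn1, which bundles actin, had 497, 541 and 635 against 231, 204 and 269, a difference of -1.14 ± 0.15 SE (adjusted p = 0.0165), all of it in the drug effect of -1.14. Meox2, a homeobox gene of blood vessels, the lymphocyte GTPase Gimap4, the sialyltransferase St8sia4, the replication helicase gene Mcm6 and Lingo3 were lower by 0.87 to 0.94 in size, each with the drug effect called and the genotype effect not called. Ramp1, a coreceptor for the vasodilator CGRP, fell with both. It had 341, 294 and 245 in WT untreated, 159, 239 and 115 in CHIP-altered untreated, 124, 132 and 170 in WT DOX and 82.3, 87.6 and 78.4 in CHIP-altered DOX hearts, and the last group lay below all other arrays. The genotype call was lost without any 1 of 7 arrays, and without the pair of CHIP-altered untreated replicate 3 and WT DOX replicate 2. The difference was -1.49 ± 0.20 SE (adjusted p = 0.0162), while 2 dimmer probe sets of Ramp1 gave -0.21 and -0.02 and were not called.

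Red cell transcripts had the largest differences among the called probe sets. Alas2, which starts heme synthesis in red cell precursors, had 177, 538 and 978 in WT untreated hearts and 20, 22 and 31.7 in CHIP-altered DOX hearts. It had 146, 304 and 56.3 in CHIP-altered untreated hearts and 33.4, 17.9 and 14.7 in WT DOX hearts, and every DOX array lay below every untreated array. The difference was -3.13 ± 0.57 SE (adjusted p = 0.0458), with a drug effect of -2.42 and a genotype effect that was not called. A probe set shared by beta-globin genes had 8235, 17122 and 18682 against 144, 192 and 165, a difference of -6.13 ± 0.47 SE (adjusted p = 0.00149). The 3 probe sets shared by alpha-globin genes differed by -6.81, -6.29 and -6.17, and none of these shared probe sets can be assigned to 1 gene. In whole hearts fewer cells of a type and less RNA per cell cannot be told apart, here and for the markers below. Of 5 probe sets shared by histone H4 genes, 2 rose, by 1.86 (adjusted p = 0.00553) and 2.02 (adjusted p = 0.0153). The second had 873, 669 and 694 in WT untreated hearts and 3225, 2792 and 3320 in CHIP-altered DOX hearts. The other 3 differed by 0.14, 0.99 (adjusted p = 0.234) and 0.01 and were not called.

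Where the genotype and the drug acted in opposite directions was read from the probe sets with both effects called. There were 915 of these, and 867 (1.93% of all) had opposed signs while 48 (0.107%) had the same sign. The genotype effect was called in 5.28% and the drug effect in 9.15% of all probe sets. With 3 arrays in each group the 2 effects are orthogonal contrasts of the group means, but an unusual CHIP-altered untreated or WT DOX array would push them in opposite directions. The mean distance among arrays was also larger in those groups, 0.203 and 0.191, than in WT untreated (0.139) and CHIP-altered DOX (0.145). A wider spread there favours opposed signs, and the counts were not corrected for it. Without both CHIP-altered untreated replicate 3 and WT DOX replicate 2 the counts were 558 opposed and 43 in the same direction. With unequal group sizes the 2 effects are then no longer orthogonal, which again favours opposed signs. Opposed calls outnumbered those in the same direction without each of the 12 arrays. They ranged from 388 without WT untreated replicate 2 to 1234 without WT DOX replicate 3, and were also more than 1.5 times fewer without WT untreated replicate 1 (483) or 3 (419), WT DOX replicate 1 (525) or 2 (520), and CHIP-altered DOX replicate 2 (420) or 3 (489). The interaction, which asks whether the drug response differs between the genotypes, was called in 0 probe sets by limma, with 3914 at an unadjusted p under 0.05.

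Of the 867 opposed probe sets, 425 were higher with the genotype and lower with the drug, and 442 the reverse. The median size was 0.33 for the genotype effect and 0.32 for the drug effect, and the median size of their sum was 0.07, against 0.67 for the difference between WT DOX and CHIP-altered untreated hearts. In 804 of the 867 (92.7%) the 95% interval of the sum lay within 1.5-fold, against 93.1% of all probe sets, 77.8% where the genotype effect by itself was called and 71.1% where the drug effect by itself was called. Since the opposed probe sets were chosen by the 2 effects that make up the sum, these shares describe the selection and are not tested. Of the 867, 5 were called between CHIP-altered DOX and WT untreated hearts, against 0.659% of all probe sets, Myot, Kdelr3, Osbpl8 and 2 probe sets that name several genes. Both effects reached 1.5-fold in 80 opposed probe sets and in 1 with the same direction, which was Ramp1.

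**Figure D3:**
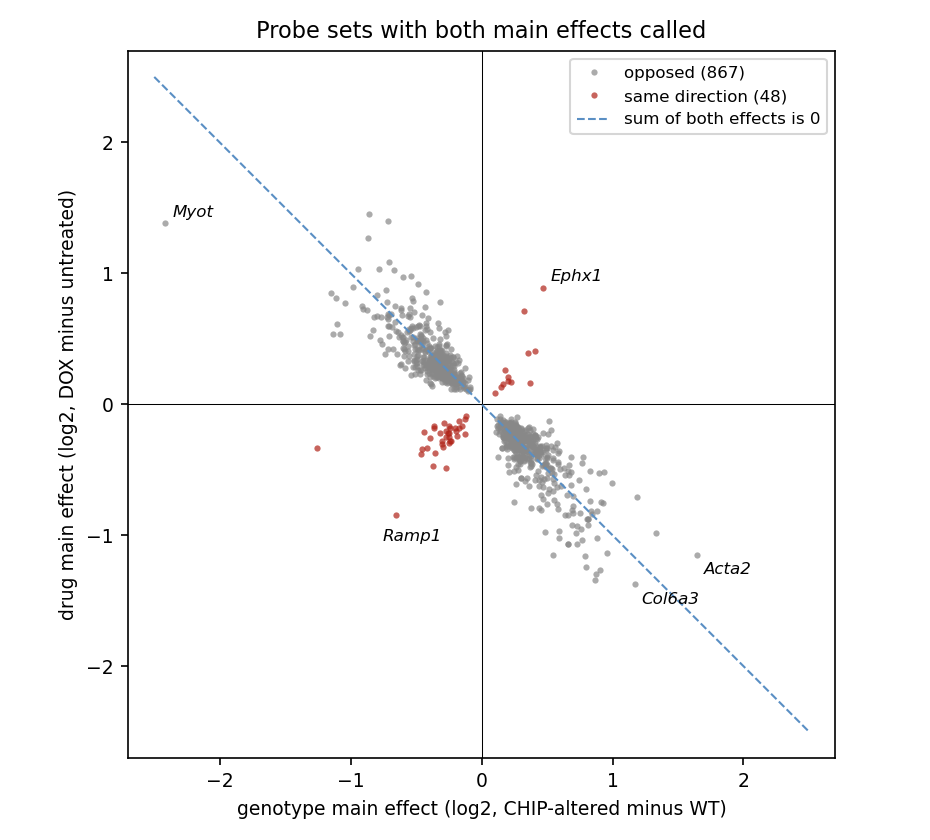
Genotype main effect (x, log2, CHIP-altered minus WT) against drug main effect (y, log2, DOX minus untreated) for the 915 probe sets with both effects called, 867 opposed (grey) and 48 in the same direction (red). The dashed line marks a sum of 0, and most of the grey points lie along it, with Myot farthest out.

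Opposed effects were read next by gene list. Of 28 collagen and matrix genes, 16 rose and 0 fell with the genotype, 14 fell and 1 (Timp3) rose with the drug, and 11 had opposed effects, against 2.89% of 18193 genes. Over all genes 3.12% rose with the genotype and 7.08% fell with the drug. The median genotype effect of the list was 0.71, the median drug effect -0.61 and the median difference between CHIP-altered DOX and WT untreated hearts 0.02, against -0.00 over all genes. Single members differed by -0.74 to 1.03, and 10 of the 28 (35.7%) had a 95% interval within 1.5-fold, against 90.5% of all genes. Mmp2 was called in that difference (0.901% of all genes were called) and had no called drug effect. Without both CHIP-altered untreated replicate 3 and WT DOX replicate 2, 6 of the 28 rose with the genotype, 12 fell with the drug and 5 were opposed, with medians of 0.58 and -0.45 for the effects, and the difference, which uses neither array, kept its median of 0.02. The list median of the genotype effect was 0.70 and 0.72 and that of the drug effect -0.61 and -0.61 after subtraction of array medians and after quantile normalization.

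The promoter windows of 2 collagen genes with opposed effects are shown, Col1a2 on the plus strand at chr6:4505368-4505617 and Col3a1 on the plus strand at chr1:45311288-45311537, with the same capitals as above.
Col1a2: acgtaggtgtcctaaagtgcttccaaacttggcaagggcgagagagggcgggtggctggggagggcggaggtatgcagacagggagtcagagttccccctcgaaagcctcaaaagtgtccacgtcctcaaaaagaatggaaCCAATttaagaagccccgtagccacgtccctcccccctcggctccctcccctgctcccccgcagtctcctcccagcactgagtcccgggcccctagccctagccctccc
Col3a1: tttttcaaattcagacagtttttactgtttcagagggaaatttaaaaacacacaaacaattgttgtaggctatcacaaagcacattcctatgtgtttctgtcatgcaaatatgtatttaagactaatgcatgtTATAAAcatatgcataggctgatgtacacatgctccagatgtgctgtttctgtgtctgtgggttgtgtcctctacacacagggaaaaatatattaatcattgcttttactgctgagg
The Col1a2 window held 1 CCAAT, 109 bases before the start, and the Col3a1 window held 1 TATAAA, 117 bases before the start. They have no motif of the 2 in common.

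Col1a2, a chain of the main fibrillar collagen, had 945, 619 and 924 in WT untreated hearts and 1753, 1320 and 1944 in CHIP-altered untreated hearts. It had 449, 465 and 607 in WT DOX hearts and 619, 1166 and 780 in CHIP-altered DOX hearts. The last group overlapped the WT untreated group, and the groups with 1 change lay on either side. The genotype effect was 0.84 (adjusted p = 0.0247), the drug effect -0.82 (adjusted p = 0.0197) and the sum 0.02 ± 0.25 SE (95% interval -0.53 to 0.57). The genotype call was lost without any 1 of 5 of the 12 arrays, the drug call without WT untreated replicate 3, and both without the pair of CHIP-altered untreated replicate 3 and WT DOX replicate 2. Col6a3, a chain of the microfibrillar collagen VI, had 249, 216 and 316 in WT untreated, 665, 545 and 727 in CHIP-altered untreated, 86.9, 46.4 and 134 in WT DOX and 162, 272 and 238 in CHIP-altered DOX hearts. Its effects were 1.17 and -1.37 and the sum -0.20 (interval -0.79 to 0.39), which leaves room for a fold of more than 1.5. On the brighter Col3a1 probe set the drug effect of -2.17 was called and the genotype effect of 1.43 was not (adjusted p = 0.0557), while on the dimmer one both were, at 0.88 and -1.02. The genotype call of the dimmer one was lost without any 1 of 6 arrays and without that pair, and its drug call held.

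Lum, a small proteoglycan that binds collagen fibrils, had 1611, 1532 and 1871 in WT untreated hearts and 960, 1450 and 1531 in CHIP-altered DOX hearts, so that the highest of the latter barely missed the lowest of the former. The difference was -0.36 (interval -0.71 to -0.02, adjusted p = 0.35), from a genotype effect of 0.90 and a drug effect of -1.26. Col15a1, a collagen of basement membranes, had 225, 177 and 214 against 118, 162 and 159, with a difference of -0.42 (interval -0.80 to -0.03, adjusted p = 0.328), and Col6a2 had 670, 570 and 704 against 354, 561 and 477, with a difference of -0.47 (interval -0.88 to -0.06, adjusted p = 0.303). In each the groups did not overlap, as in 21.4% of all probe sets, but the difference was not called.

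Markers of fibroblasts, the cells that make most of this matrix, moved with it in part. Of 12 fibroblast markers, 3 rose with the genotype (Col1a1, Lum and Islr) and 6 fell with the drug, with medians of 0.31 and -0.30 and a median difference of 0.02 between the compared groups. Col1a1 and Lum are themselves matrix genes, so part of this shared movement is built into the markers. Without the pair of arrays named above, 1 rose with the genotype and 5 fell with the drug. Their summed intensity was 17125 to 19958 in WT untreated, 19330 to 26481 in CHIP-altered untreated, 15835 to 17934 in WT DOX and 18205 to 20138 in CHIP-altered DOX hearts. Dcn and Pdgfra, which define these cells, were not called for either effect. The part of the number of fibroblasts in the collagen values was not tested. Macrophage markers were less evenly balanced, with 10 of 18 lower with the drug, 1 higher with the genotype (Clec4n) and a median difference of -0.19 between the compared groups, in which 0 were called. With the same pair of arrays left out, 10 were lower with the drug and 0 higher with the genotype.

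Myot, the gene of myotilin, a protein of the Z-disc, had the largest opposed effects. Its intensity was 369, 459 and 413 in WT untreated, 67.8, 58.2 and 63.1 in CHIP-altered untreated, 1635, 1225 and 1075 in WT DOX and 183, 161 and 212 in CHIP-altered DOX hearts. The 4 groups did not overlap at all. The genotype effect was -2.42 ± 0.10 SE (adjusted p = 2.17e-05) and the drug effect 1.38 ± 0.10 SE (adjusted p = 0.000601), which left the CHIP-altered DOX heart 2.05-fold below the untreated wild-type heart (log2 -1.04 ± 0.14 SE, adjusted p = 0.0181). Cancellation in Myot was partial. Of the other 27 genes of the sarcomere and Z-disc list, Xirp1 and Des fell with the genotype and rose with the drug and Fhl2 did the reverse, and none of these 3 was called between the compared groups. The genotype calls of Xirp1 and Des were lost without CHIP-altered untreated replicate 3 and WT DOX replicate 2.

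**Figure D4:**
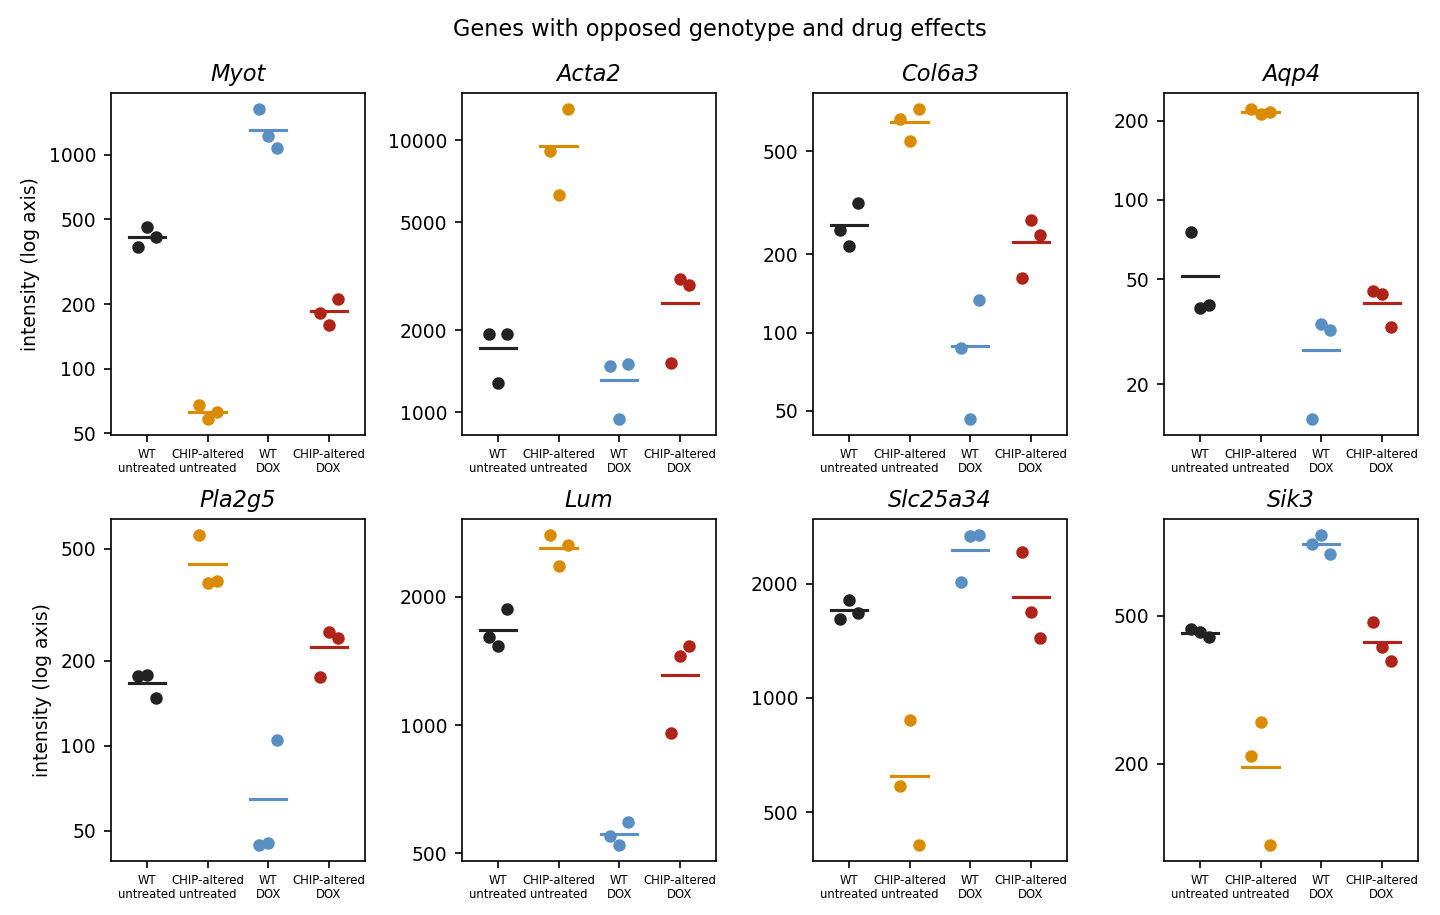
Intensity on a log axis (y) of 8 genes with opposed genotype and drug effects in the 4 groups (x), with a point per array and a bar at the group mean (n = 3). By group mean, CHIP-altered untreated and WT DOX hearts lie on opposite sides of the WT untreated level, and CHIP-altered DOX hearts lie between them. Single arrays can overlap, as those of WT DOX and WT untreated hearts do in Acta2.

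Acta2, the smooth muscle actin that also marks activated fibroblasts, had 1934, 1283 and 1932 in WT untreated, 9168, 6289 and 13040 in CHIP-altered untreated, 1484, 943 and 1507 in WT DOX and 1521, 3091 and 2928 in CHIP-altered DOX hearts. Every CHIP-altered DOX array lay below every CHIP-altered untreated array, and the compared groups overlapped. The genotype effect was 1.65 and the drug effect -1.15, and the difference of 0.50 had an interval of -0.26 to 1.26. The drug call was lost without WT untreated replicate 3 and without the pair of CHIP-altered untreated replicate 3 and WT DOX replicate 2. Pla2g5, a secreted phospholipase, had 177, 178 and 148 in WT untreated, 559, 379 and 382 in CHIP-altered untreated, 44.5, 45.4 and 105 in WT DOX and 175, 254 and 242 in CHIP-altered DOX hearts. Effects of 1.33 and -0.99 left a difference of 0.35 (interval -0.18 to 0.87).

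Aqp4, a water channel, had 75.8, 38.8 and 39.9 in WT untreated, 221, 211 and 215 in CHIP-altered untreated, 14.7, 33.8 and 32 in WT DOX and 45.2, 43.9 and 32.9 in CHIP-altered DOX hearts. The CHIP-altered untreated arrays stood above all others, with effects of 0.96 and -1.13 and a difference of -0.18 (interval -0.56 to 0.21), and the interaction was not called. Among the named opposed genes Ccdc69 had the smallest difference, with 145, 110 and 129 in WT untreated and 110, 129 and 147 in CHIP-altered DOX hearts, effects of 0.84 and -0.84 and a difference of 0.00 (interval -0.34 to 0.34). WT DOX hearts had 66.7, 76.3 and 93.2 and CHIP-altered untreated hearts 249, 381 and 345, with no overlap between these groups and the compared ones.

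The reverse pattern, lower with the genotype and higher with the drug, covered 442 of the opposed probe sets. Sik3, a salt-inducible kinase, had 460, 452 and 439 in WT untreated, 209, 258 and 121 in CHIP-altered untreated, 782, 825 and 734 in WT DOX and 482, 412 and 379 in CHIP-altered DOX hearts. Effects of -0.98 and 0.90 gave a difference of -0.09 (interval -0.51 to 0.34), and the compared groups overlapped. A brighter Sik3 probe set is not described here. Slc25a34, a mitochondrial carrier, had 1616, 1812 and 1670 in WT untreated, 586, 875 and 410 in CHIP-altered untreated, 2014, 2663 and 2686 in WT DOX and 2418, 1687 and 1439 in CHIP-altered DOX hearts, with a difference of 0.09 (interval -0.48 to 0.66). Its genotype call was lost without CHIP-altered DOX replicate 2. Cnksr1 and Sult1a1 had larger drug effects, 1.27 and 1.46, than genotype effects, -0.87 and -0.86, and differences of 0.40 and 0.60 that were not called. The genotype call of Sult1a1 was lost without any 1 of 4 arrays and without the pair of CHIP-altered untreated replicate 3 and WT DOX replicate 2.

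Over all genes 5.32% rose with the drug and 4.46% fell with the genotype. Of 19 muscle atrophy and FoxO target genes, 11 rose with the drug, 2 (Sesn1 and Eif4ebp1) fell with the genotype, and the median difference between CHIP-altered DOX and WT untreated hearts was 0.28, with 1 gene called, Bnip3. Sesn1, a stress-induced inhibitor of growth signalling, had 1619, 1281 and 1314 in WT untreated, 1005, 698 and 697 in CHIP-altered untreated, 2785, 2807 and 1895 in WT DOX and 1708, 1751 and 1221 in CHIP-altered DOX hearts. The compared groups overlapped, with a difference of 0.14 (interval -0.32 to 0.59). Of 19 glucocorticoid-induced genes, 9 rose with the drug, 2 (Klf9 and Sult1a1) fell with the genotype and 0 were called between the compared groups, with a median difference of 0.49. The list medians of the drug effect were 0.56 and 0.76, against -0.01 over all genes. Without CHIP-altered untreated replicate 3 and WT DOX replicate 2, 10 atrophy and 12 glucocorticoid-induced genes rose with the drug, and the genotype calls of Sesn1, Klf9 and Sult1a1 were lost.

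Fatty acid genes showed the same order at a smaller size. Of 27 genes, 17 rose with the drug, 4 fell with the genotype (Slc25a20, Eci1, Decr1 and Mlycd), and 0 were called between the compared groups, with medians of 0.28, -0.21 and 0.10 for the drug effect, the genotype effect and the difference. Decr1, an enzyme that prepares unsaturated fatty acids for oxidation, had 4763, 4914 and 4482 in WT untreated, 2758, 3466 and 2377 in CHIP-altered untreated, 4576, 5636 and 5719 in WT DOX and 4854, 4628 and 4045 in CHIP-altered DOX hearts. The compared groups overlapped, with a difference of -0.07 (interval -0.37 to 0.23). Without CHIP-altered untreated replicate 3 and WT DOX replicate 2, 7 of the 27 rose with the drug and 1 fell with the genotype, and both calls of Decr1 were lost. Pdk4, which blocks the entry of glucose carbon into mitochondria, kept a drug effect of 1.29 and had a difference of 1.16 that was not called (adjusted p = 0.215). Of 29 oxidative phosphorylation genes 1 was called (Ndufa1, 0.22), against 0.901% of all genes, and all 29 had intervals within 1.5-fold, against 90.5%.

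Calcium handling genes also held opposed members. Of 22, 4 rose with the genotype and fell with the drug, namely Casq2, Slc8a1, Cacnb2 and Srl, and 0 were called between the compared groups. Over all genes 2.89% were opposed in either direction. Slc8a1, the sodium-calcium exchanger, had 210, 154 and 181 in WT untreated, 534, 358 and 513 in CHIP-altered untreated, 145, 93 and 164 in WT DOX and 213, 205 and 341 in CHIP-altered DOX hearts. Effects of 0.99 and -0.60 left a difference of 0.39 (interval -0.12 to 0.90), and the compared groups overlapped. Casq2, the calcium store protein of the sarcoplasmic reticulum, had effects of 0.41 and -0.58, and all 3 CHIP-altered DOX arrays, at 3122, 3890 and 3857, lay below the WT untreated arrays at 3994, 4030 and 4141 without a call (adjusted p = 0.564). Without CHIP-altered untreated replicate 3 and WT DOX replicate 2, 2 of the 22 were opposed, the drug call of Slc8a1 and the genotype call of Casq2 being lost.

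**Figure D5:**
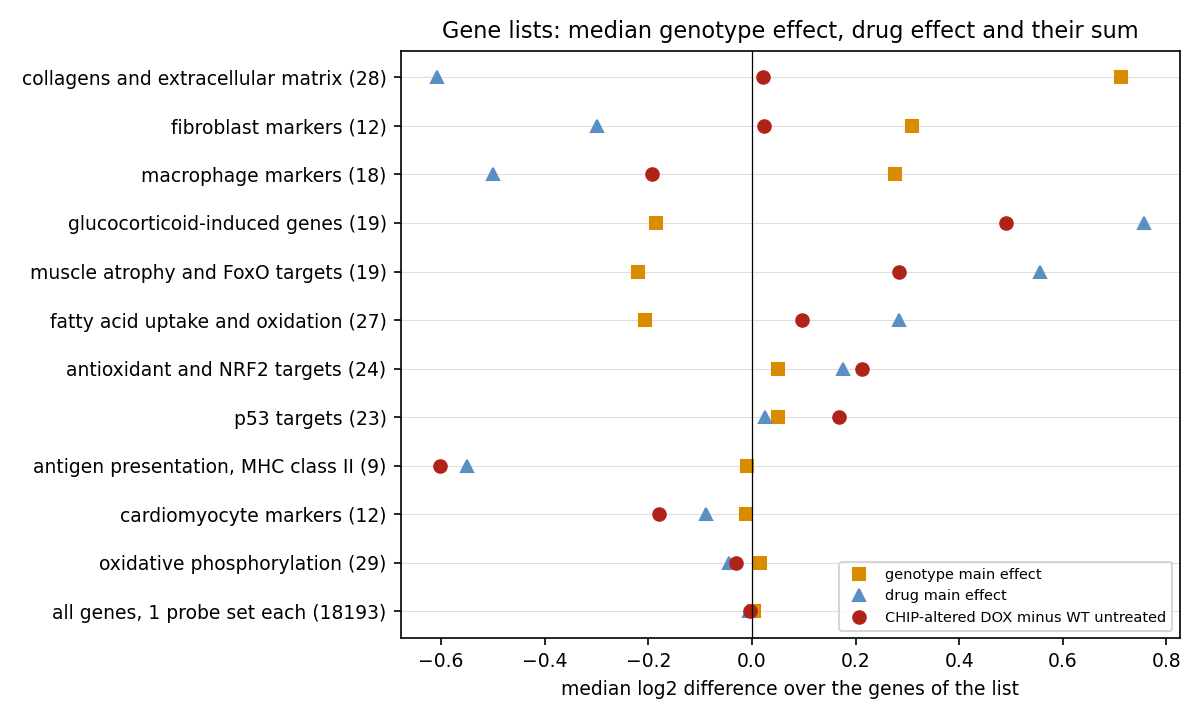
Median log2 difference over the genes of each list (x) for the genotype main effect (squares), the drug main effect (triangles) and CHIP-altered DOX minus WT untreated (circles), with the number of genes in brackets. For collagens and extracellular matrix the medians are 0.71 and -0.61 and the sum lies at 0.02, while for glucocorticoid-induced genes it lies at 0.49.

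In the pathway in which CHIP itself works, Ube2d3 stood out. It encodes an enzyme that passes ubiquitin to ligases such as CHIP. On its brightest probe set it had 2032, 2051 and 2001 in WT untreated, 1601, 1729 and 1789 in CHIP-altered untreated, 2117, 1946 and 2072 in WT DOX and 1499, 1535 and 1537 in CHIP-altered DOX hearts. All CHIP-altered arrays lay below all WT arrays, and it fell by 0.41 (SE 0.04, adjusted p = 0.00832) between the compared groups, with a genotype effect of -0.33 and a drug effect of -0.07 (adjusted p = 0.179). Further probe sets of Ube2d3 were called at -0.56 and -0.42. Of 27 ubiquitin and proteasome genes it was the 1 called, while 6 rose and 1 fell with the genotype and 6 rose and 4 fell with the drug. Over all genes 0.901% were called, 3.12% rose and 4.46% fell with the genotype, and 5.32% rose and 7.08% fell with the drug. With CHIP-altered untreated replicate 3 and WT DOX replicate 2 left out, 5 of the 27 rose and 2 fell with the genotype, and 5 rose and 3 fell with the drug. The proteasome subunits Psmb3 and Psmd14 were opposed, with differences of 0.05 and 0.12 that were not called. Intervals lay within 1.5-fold in 26 of the 27 genes, against 90.5% of all genes. Of 18 chaperone genes, Stub1 included, 0 others were called between the compared groups, and Hspb6, a small heat shock protein, fell with the genotype by 0.26.

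Effects that added up were few. All 48 probe sets with both effects in the same direction were called between CHIP-altered DOX and WT untreated hearts, as the sum of 2 called effects of 1 sign will nearly always be, and the median size of the difference was 0.52. Of these, 12 were higher and 36 lower. Their number was 23 without WT untreated replicate 2 or 3, 20 without CHIP-altered DOX replicate 2, 25 and 30 without WT DOX replicate 1 and CHIP-altered untreated replicate 1, and 31 without CHIP-altered DOX replicate 1. Grb14, an adaptor that restrains the insulin receptor, had 2147, 2124 and 2066 in WT untreated, 1488, 1445 and 1270 in CHIP-altered untreated, 1421, 1634 and 1409 in WT DOX and 1302, 1187 and 1027 in CHIP-altered DOX hearts. It fell by 0.84 (SE 0.09, adjusted p = 0.00832), with effects of -0.46 and -0.38, and all arrays of the other groups lay below every WT untreated array. Prrx1, a mesenchymal homeobox gene, Cyba, a subunit of the NADPH oxidase, and Pkia, an inhibitor of protein kinase A, were also lower, by 0.75 to 0.84 in size. The genotype call of Prrx1 was lost without any 1 of 10 arrays and the drug call of Cyba without any 1 of 9. A brighter Prrx1 probe set is not described here.

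Gstm2 and Gstm1, which encode glutathione transferases, rose. Gstm2 had 923, 901 and 793 in WT untreated, 1136, 1146 and 1035 in CHIP-altered untreated, 1205, 1059 and 1146 in WT DOX and 1495, 1547 and 1386 in CHIP-altered DOX hearts. The CHIP-altered DOX arrays lay above all others, and the difference of 0.74 ± 0.07 SE (adjusted p = 0.00528) was the sum of 0.35 and 0.39. Gstm1, a close paralog of Gstm2, rose by 0.62 ± 0.08 SE (adjusted p = 0.0163) through the drug effect of 0.56. Of 24 antioxidant and NRF2 target genes these 2 were called, 9 rose and 1 fell with the drug, and 3 rose with the genotype. Over all genes 0.901% were called, 5.32% rose and 7.08% fell with the drug, and 3.12% rose with the genotype. Gpx1, the glutathione peroxidase, was opposed, with effects of 0.50 and -0.41 and a difference of 0.09 (interval -0.16 to 0.33).

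The p53 targets were mixed. Of 23, Phlda3 was called between the compared groups, 4 rose with the genotype (Phlda3, Ccng1, Eda2r and Sesn2), 2 fell with it (Sesn1 and Rrm2b) and 6 rose with the drug. The shares over all genes were 0.901%, 3.12%, 4.46% and 5.32% in that order. Cdkn1a, the cell cycle inhibitor p21, had 211, 175 and 190 in WT untreated and 2129, 1666 and 1071 in CHIP-altered DOX hearts. The groups were far apart and the difference of 2.83 ± 0.68 SE was not called (adjusted p = 0.0952). CHIP-altered untreated hearts had 419, 345 and 2794, where replicate 3 stood far above the rest of its group. The median difference of the list was 0.17. When CHIP-altered untreated replicate 3 and WT DOX replicate 2 were left out, 4 of the 23 were called between the compared groups. These were Phlda3, Cdkn1a (limma adjusted p = 0.0123), Eda2r and Mdm2. In that fit 4 rose and 1 fell with the genotype, and 5 rose with the drug. The compared groups hold neither array, so the differences themselves kept their size.

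Among genes of wall stress, Nppa, which encodes atrial natriuretic peptide, had 9428, 6579 and 3556 in WT untreated and 11399, 16112 and 11268 in CHIP-altered DOX hearts, and the groups did not overlap. The difference of 1.07 ± 0.36 SE was not called (adjusted p = 0.226), whereas the genotype effect of 1.14 was (adjusted p = 0.0337, and 0.108 without CHIP-altered untreated replicate 3 and WT DOX replicate 2). Nppa also marks atrial tissue. Of 7 atrial markers, 6 had a genotype effect above 0, with a median of 0.17. Nppa was the 1 called, against 3.12% of all genes, and 0 were called between the compared groups. The share of atrial tissue in each sample was not tested. Uchl1, a deubiquitinase, rose from 54.4, 40.3 and 46.3 to 85.6, 120 and 78.3 (0.67 ± 0.11 SE, adjusted p = 0.0315). Myh7, the slow myosin heavy chain, had a called drug effect of 1.62 and a difference of 0.79 (adjusted p = 0.554), and its compared groups overlapped. Ccn1, a matricellular protein, had 399, 310 and 365 in WT untreated, 769, 862 and 624 in WT DOX and 262, 280 and 274 in CHIP-altered DOX hearts. Its DOX response was called in WT hearts (1.00, adjusted p = 0.0109) and the treated CHIP-altered hearts lay below the WT untreated arrays without a call (-0.35, adjusted p = 0.26), and the interaction was not called.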

How the data were processed

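Heart RNA was hybridised to 12 1-colour Affymetrix arrays, 3 in each of 4 groups taken from the labels. The deposited intensity values were summarised per probe set by the authors with Affymetrix Expression Console, and the version, summary method and scaling are not given in the sources used here. The arrays' number limits the precision. After adding 32 and taking log2, 4 group means were fitted to 12 arrays with limma 3.58.1 in R 4.3.3, with Benjamini-Hochberg adjustment over 45037 probe sets and two-sided tests. Of these, 34945 name 1 gene, 932 several and 9160 none, by the platform annotation, and 34741 were matched by Entrez ID to a RefSeq gene table. Lists use the brightest probe set of each gene (18193 genes, 650 of 715 list members matched). An exact permutation test of 3 against 3 arrays cannot go below p = 0.1 and was not used. Named genes were the 15 highest and 15 lowest called genes whose groups did not overlap, the 15 opposed and 12 same-direction genes with the largest smaller effect, called list members and a few genes known from other comparisons. Members, rule and lists were chosen with earlier results of these data known. Kdelr3, Osbpl8 and other list members were named after their values were seen. Steps were tested on simulated data. Alternatives were other scalings, added values, filters, variance models, thresholds, array weights, a replicate block and leaving out arrays. Leaving out 2 arrays together was chosen after seeing the data.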

Additional observations from a re-analysis of the deposited data

How the results depend on the processing

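Between CHIP-altered DOX and WT untreated hearts, 297 probe sets were called, 94 higher and 203 lower, with 867 opposed and 48 in the same direction. Leaving out 1 array at a time gave 28 to 729 calls, 9 to 237 higher, 19 to 492 lower, 388 to 1234 opposed and 20 to 69 in the same direction. Quantile normalization gave 144 higher and an added value of 1 gave 160. Probe sets with a mean of at least 64 gave 685 calls (242 higher, 443 lower, 75 in the same direction). A trended, robust variance gave 478 (161 and 317), array weights 932 (315 and 617, with 76 in the same direction), and a fit to the 6 arrays compared 901 (319 and 582). At an adjusted p under 0.01 there were 21 (6 and 15), with 148 opposed and 5 in the same direction, and under 0.1 there were 1049 (352 and 697), with 1557 and 124. The methods' t-test called 5937 unadjusted (2713 and 3224) and 0 after Benjamini-Hochberg (0 and 0), where limma called 297 and 5972 at an unadjusted p under 0.05. Without both CHIP-altered untreated replicate 3 and WT DOX replicate 2 there were 785 (254 and 531), with 558 opposed and 43 in the same direction. The cause of these changes was not tested. Same-numbered arrays did not deviate together (18 pairs, correlations -0.249 to 0.150, 3 over 0.1), and with the replicate block there were 227 calls (67 higher, 160 lower), 943 opposed and 41 in the same direction. Of 2809 single-gene values under the alternatives, 2403 kept direction and side of the threshold, 404 lost the call, 2 gained it and 0 reversed.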

Other observations

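Of 9 genes of antigen presentation by MHC class II, which display peptides to helper T cells, 5 fell with the drug and 0 moved with the genotype. Over all genes 7.08% fell with the drug, and 3.12% rose and 4.46% fell with the genotype. H2-Aa had 1263, 2663 and 1602 in WT untreated hearts and 468, 560 and 656 in CHIP-altered DOX hearts, so that the groups did not overlap, yet the difference of -1.60 ± 0.37 SE was not called by limma (adjusted p = 0.0836). Cd74, the chaperone of these molecules, had 495, 935 and 502 against 221, 209 and 276, a difference of -1.29 (adjusted p = 0.0787). The list median was -0.60, and T cell, B cell and NK cell markers were dim, with a sum over 14 genes of 814 at most.

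Of 29 cell cycle genes, 9 fell with the drug and 1 (Tpx2) rose, against 7.08% and 5.32% of all genes. With CHIP-altered untreated replicate 3 and WT DOX replicate 2 left out, 10 fell, 0 rose and 2 were called between the compared groups. Mcm6 was the 1 gene of the list called between the compared groups, with 166, 140 and 174 in WT untreated and 87.4, 55.6 and 64.3 in CHIP-altered DOX hearts. Ccnd2, a cyclin of the early cell cycle, was opposed, with 1352, 1728 and 1897 in WT untreated, 2437, 3773 and 2388 in CHIP-altered untreated, 922, 841 and 977 in WT DOX and 1423, 1499 and 1773 in CHIP-altered DOX hearts. The compared groups overlapped, with a difference of -0.08 (interval -0.48 to 0.33). Of 18 clock genes, 4 fell with the drug (Nr1d1, Dbp, Ciart and Bhlhe40), against 7.08% of all genes, and 0 were called between the compared groups. Leaving out the same pair of arrays, 7 fell and 3 rose with the drug, and 1 was called between the compared groups. Amino acid synthesis and ATF4 target genes rose with the genotype in 8 of 28 and fell in 2, against 3.12% and 4.46% of all genes. Between the compared groups 0 were called, against 0.901% of all genes.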
